A study of Mus musculus with 5 samples.

Results

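The HIN-200 genes are a family of interferon-inducible genes that lie side by side on mouse chromosome 1, and they were examined in bulk RNA sequencing of mouse colon spheroids, balls of epithelial cells grown in culture. The 8 members were taken by name: Ifi202b, Ifi203, Ifi204, Ifi205, Aim2, Mnda, Mndal and Pyhin1. Of these, 6 had a row under that name among the 32793 gene rows of the tables. RefSeq lists Mnda as an older name of Ifi211 and Pyhin1 as an older name of Ifi209, and both of those rows were present, so all 8 could be read, the last pair under their current symbols. The family was chosen by the measured difference of its genes between mutant and wild-type libraries, so the values of the members in that comparison are given as a description and not as a test; where calls of members are counted, nothing is read from them.

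The mutant group (NDD) held 2 libraries of spheroids that express the alleles Notch1DD and Notch2DD, which encode Notch receptors unable to dimerize. The control group (WT) held 3 wild-type libraries. The strain label was the same for all 5, a mix in which C57Bl6 prevails and FVB contributes. No share of either strain is given per library, so strain could not be compared between the groups. The labels do not say whether replicates came from separate animals or cultures, so the spread between them may be technical, and they state neither age nor treatment.

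HIN-200 proteins bind DNA through a HIN domain, and most also carry a pyrin domain that joins them to partner proteins. AIM2 senses double-stranded DNA in the cytosol and recruits the adaptor ASC to activate caspase-1 in an inflammasome. Other members act in the nucleus or feed into the STING pathway, and most are induced by interferon through STAT and IRF factors. Mouse Ifi202b encodes p202, which has HIN domains but no pyrin domain and can hold back AIM2. Its level is known to differ between inbred mouse strains.

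In GENCODE M21 (build GRCm38, the same assembly as the mm10 named in the submitters' processing notes) the family runs from Aim2 to Ifi205, over 681 kb at chr1:173350879-174031810, and counts 14 annotated genes. Ifi202b lies at chr1:173962568-173982744 on the minus strand, next to Ifi203 (chr1:173920407-173942672), Ifi211 (chr1:173896345-173913046) and Ifi204 (chr1:173747293-173766943), all on the minus strand. Aim2 stands at the other end of the cluster on the plus strand (chr1:173350879-173466040). The annotated span of Mndal (chr1:173849126-173942491, minus strand) covers Ifi211 and overlaps Ifi203, so reads of these 3 genes may not be fully separable.

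The sequence just before the start of the genes is shown because 4 of the 7 members with a promoter entry hold the core of the interferon-stimulated response element there and 3 do not. The 250 bases before each start were read from RefSeq promoters of build GRCm38.p6, which held 12 of the 14 annotated genes and 7 of the 8 members (not Ifi204). The core of the interferon-stimulated response element was searched as GAAANNGAAA on both strands. It was present in 10 of the family's 14 promoters (9 of the 12 genes), against 2.98% of all 32851 promoters of that length. The windows before the 2 starts of Mndal overlap annotated exons over 211 and 118 of their bases. Smaller overlaps were 55 bases for Ifi205, 33 for Aim2, 17 for 1 of the starts of Ifi203 and 2 for Ifi213. Among the members the core was found before Ifi203, Ifi205, Ifi211 and Mndal, and not before Ifi202b, Aim2 or Ifi209. Ifi203 held it at 1 of its starts, the one whose window overlaps an exon. The matches lay between 134 and 26 bases before the start. The following stretches of 30 bases (5′ to 3′) show the match in capitals with its flanks.
Ifi203 (chr1:173942508-173942537, minus strand): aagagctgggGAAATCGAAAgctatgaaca
Mndal (chr1:173880204-173880233, minus strand): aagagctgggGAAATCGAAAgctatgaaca
Ifi211 (chr1:173913064-173913093, minus strand): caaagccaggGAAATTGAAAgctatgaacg
Ifi205 (chr1:174031870-174031899, minus strand): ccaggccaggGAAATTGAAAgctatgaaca
Ifi207 (chr1:173741831-173741860, minus strand): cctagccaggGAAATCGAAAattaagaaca

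The letters GAAATCGAAA were found before 7 of the family's genes and GAAATTGAAA before Ifi211 and Ifi205. The second start of Mndal also held a match on the other strand. The whole window of Ifi202b is printed beside that of Ifi211 for comparison. Capitals mark the interferon-stimulated response element core in Ifi211 and, in Ifi202b, the pattern TTCNNNGAA, a letter form of the gamma-interferon activated site to which STAT dimers bind. That pattern reads the same on both strands and stood 148 to 140 bases before the start of Ifi202b. It occurred in 7.02% of all promoters. Among the family's 14 promoters only that of Ifi202b held it, a share near that of all promoters. A match of letters is a description and not a measured binding site.
Ifi202b (chr1:173982845-173983094, minus strand): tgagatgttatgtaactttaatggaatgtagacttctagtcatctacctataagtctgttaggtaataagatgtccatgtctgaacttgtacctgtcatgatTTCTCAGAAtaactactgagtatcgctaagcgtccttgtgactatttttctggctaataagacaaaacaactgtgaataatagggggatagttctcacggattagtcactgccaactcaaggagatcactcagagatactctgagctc
Ifi211 (chr1:173913047-173913296, minus strand): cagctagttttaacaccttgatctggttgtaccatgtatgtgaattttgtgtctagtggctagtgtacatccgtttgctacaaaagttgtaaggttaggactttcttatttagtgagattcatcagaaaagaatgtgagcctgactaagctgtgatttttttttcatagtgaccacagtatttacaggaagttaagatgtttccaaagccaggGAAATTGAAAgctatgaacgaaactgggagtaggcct

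Library totals lay between 22122748 and 22372029 estimated counts in NDD and between 19192389 and 23064000 in WT. Zero counts in a library allow up to 3 counts (a one-sided limit at 95% confidence, lower than the upper end of the central intervals below), or 0.130 to 0.156 CPM (counts scaled to library size), and this limit and the intervals below cover counting error only, since PCR copies are not independent molecules. The mutated genes were read in every library (Notch1 at 55.1 to 69.1 CPM, Notch2 at 26.3 to 55.5 CPM), which does not check the labels, because the alleles change the protein. NDD replicate 2 stood farthest from the others on the first principal component of log2 CPM (58.5% of the variance). All 12 colon epithelial markers were tested and none was called by edgeR. They summed to 17530 and 15330 CPM in NDD and 14400 to 15640 CPM in WT. Of the 12, 7 (58.3%) lay higher in both NDD libraries without overlap, against 15.8% of all tested genes. Krt20 (1373 and 2787 counts in NDD, 677, 804 and 115 in WT, log2 fold change 1.93, SE 0.77) and Slc26a3 (3587 and 5535 in NDD, 2161, 1323 and 464 in WT, log2 fold change 1.72, SE 0.64) had the largest fitted folds of the 12. The part of these marker differences in the results below was not tested. Haematopoietic cells are a known source of HIN-200 transcripts, and 13 of 16 immune cell markers had at most 3 counts in every library. Cd3g, Cd8a and Tyrobp were at 0 throughout, and Ptprc, the pan-leukocyte marker CD45, had at most 2 counts. The other 3 were the myeloid genes Csf1r (1 and 8 counts in NDD, 11, 23 and 70 in WT), Itgam (13 and 33 in NDD, 28, 37 and 39 in WT) and Cd68 (37 and 50 in NDD, 50, 81 and 87 in WT). The 16 immune markers summed to 2.50 and 4.11 CPM in NDD and to between 5.05 and 8.85 CPM in WT, so their sum was lower in both NDD libraries. Fibroblast markers summed to 10.2 and 26.1 CPM in NDD and 4.86 to 9.38 CPM in WT. Most of each sum was Pdgfrb (188 and 552 counts in NDD, 122, 102 and 80 in WT). Vim, the other fibroblast marker tested, had overlapping groups (17 and 13 counts in NDD, 37, 31 and 14 in WT). Endothelial markers summed to 1.88 and 7.28 CPM in NDD against 2.24 to 2.79 CPM in WT. Most of each of these sums was Vwf, with overlapping groups (40 and 157 counts in NDD, 42, 63 and 59 in WT).

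Aim2 was by far the most abundant member, and 4 of the others were read in the mutant libraries while WT held at most 1 count of each. In WT the cultures expressed Aim2 and, of the remaining members, no more than 1 count per gene and library. In NDD the transcripts of Ifi202b, Ifi203, Ifi204 and Ifi211 were all present in both libraries, and Aim2 was higher. Fewer cells that express a gene and less RNA per cell cannot be told apart in bulk RNA.

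Ifi202b, the p202 gene, had 390 and 236 counts in NDD replicates 1 and 2, and 1, 0 and 0 counts in WT replicates 1, 2 and 3. In TPM (values scaled for transcript length and library size) these were 18.05 and 10.89 in NDD and 0.05, 0 and 0 in WT. Both mutant libraries were high, the groups did not overlap, and the only WT count lay in WT replicate 1. The pooled counts differed 925-fold (626 against 1 count), with a 95% counting interval from 165.5 to 36610. The ratio was 603-fold without WT replicate 2 and 595-fold without WT replicate 3, and it has no value without WT replicate 1, which holds the only WT count. With 14.05 ± 4.24 CPM in NDD (SD, n = 2), the gene stood above 61.3% and 52.9% of the detected genes of its libraries in TPM.

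Ifi203, a nuclear pyrin and HIN protein, had 85 and 97 counts in NDD, while WT held 0, 1 and 0. The pair of NDD libraries was even in this gene (1.99 and 2.01 TPM) and far above WT. The pooled counts gave a 269-fold ratio (182 against 1 count, 95% counting interval 47.7 to 10680), which was 173-fold without WT replicate 3 and has no value without WT replicate 2. Its level was 4.13 ± 0.584 CPM in NDD (SD, n = 2).

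Ifi204, the gene of p204, a DNA sensor that acts with STING, had 29 and 54 counts in NDD and 0 in all 3 WT libraries. It was present in both mutant libraries, with the higher value in NDD replicate 2 (1.27 and 2.45 TPM). Against the limit that a zero allows in the smallest WT library, its mean of 1.90 ± 0.892 CPM (SD, n = 2) was at least 12.2-fold higher, or at least 8.16-fold from NDD replicate 1 alone. Ifi211, listed in the family as Mnda, had 17 and 22 counts in NDD and 0 in all WT libraries, or 1.30 and 0.95 TPM against 0. Its mean of 0.887 ± 0.203 CPM (SD, n = 2) was at least 5.71-fold above the same limit, or at least 4.785-fold from NDD replicate 1 alone. The bounds of both genes take the NDD values as they stand and leave out their counting error.

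Aim2 had 1542 and 1317 counts in NDD and 851, 947 and 936 in WT. In TPM it was 50.91 and 46.20 in NDD and 30.46, 28.47 and 28.95 in WT. Both mutant libraries lay above all WT libraries, and the WT libraries lay close together. The log2 fold change was 0.62 (SE 0.12), with NDD at 64.5 ± 4.06 CPM (SD, n = 2) and WT at 41.9 ± 1.97 CPM (SD, n = 3). It differed in kind from the 4 members above: Aim2 differed in level between cultures that all expressed it, whereas those 4 were at or near 0 in WT.

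Mndal, which encodes a nuclear pyrin and HIN protein, had 5 and 4 counts in NDD, while WT held 1, 1 and 0. Both NDD libraries lay above WT, but the pooled ratio of 6.65 (9 against 2 counts) had a counting interval from 1.38 to 63.3 and was 4.28 without WT replicate 3. Ifi205 had 2 and 0 counts in NDD and 0, 1 and 1 in WT, with overlapping groups. Ifi209, listed as Pyhin1, was at 0 in every library. No difference in Ifi205 or Ifi209 was detectable at this depth. Of the other annotated genes of the cluster that had a row, Ifi207 had 3 and 6 counts in NDD and 0 in WT, Ifi208 had a single count in NDD replicate 2, and Ifi213 and Ifi214 were at 0 throughout.

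**Figure D1:**
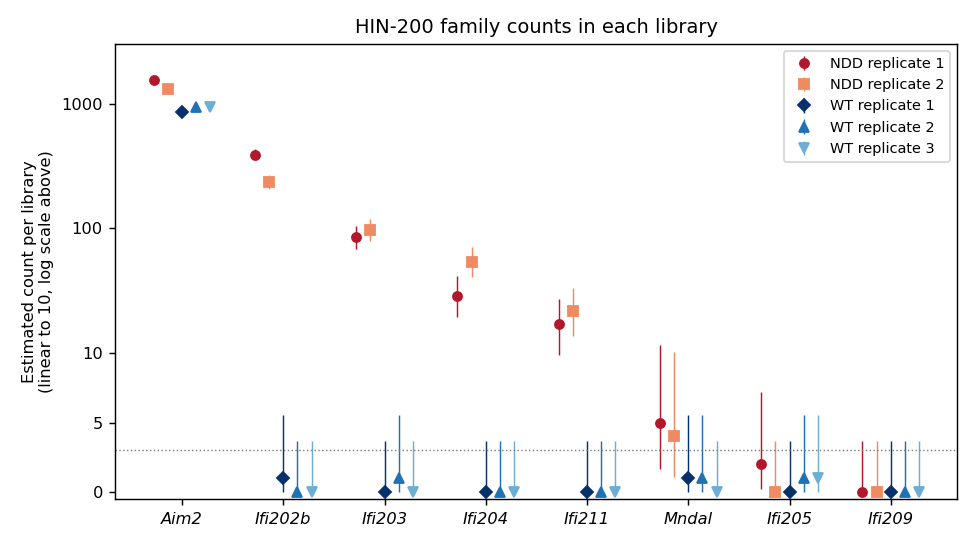
Estimated counts of the 8 members (Ifi211 listed as Mnda, Ifi209 as Pyhin1) in each of the 5 libraries. The y axis is linear to 10 and logarithmic above, points are single libraries, bars are exact 95% Poisson intervals for counting error, and the dotted line marks 3 counts. Aim2 was read in all libraries, while Ifi202b, Ifi203, Ifi204 and Ifi211 had 17 or more counts in each NDD library and at most 1 in WT.

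Only members with enough counts could enter the fit over all genes, and 5 of the 8 did: Aim2, Ifi202b, Ifi203, Ifi204 and Ifi211. The last 4 passed that filter through the NDD libraries alone, so their fitted difference was fixed by the filter. Calls on genes chosen for this difference are no test of them, and the counts that follow only describe the fit. Of these 5, edgeR's quasi-likelihood test called 2 at an adjusted p under 0.05, Ifi202b and Ifi203, both higher in NDD. Over all 13501 tested genes it called 12, or 0.0889%, of which 9 were higher in NDD (0.0667%) and 3 lower (0.0222%); 11.2% had an unadjusted p under 0.05. The count of called members was 0 without WT replicate 1, 2 or 3 (all 5 then had an unadjusted p under 0.05), 1 without NDD replicate 2 and 3 without NDD replicate 1. DESeq2 called all 5, and 357 (2.64%) of all tested genes. The edgeR count over all genes was 0 without WT replicate 1 (1211 at an unadjusted p under 0.05), 5 without WT replicate 2, 3 without WT replicate 3 and 1207 (8.62% of 14007 tested) without NDD replicate 1, where the lone mutant library is assumed to vary like the others. All 5 tested members had NDD libraries above every WT library, as did 15.8% of all tested genes; 32.0% had groups that did not overlap in either direction, 16.2% with NDD lower.

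The on or off pattern was counted over the whole table, with a gene called present at 10 or more counts in both NDD libraries and absent at 1 count or fewer in every WT library. Of 12790 genes present in NDD, 12 (0.0938%) were absent from WT, and Ifi202b, Ifi203, Ifi204 and Ifi211 made up 4 of the 12. The reverse pattern, 10 or more counts in every WT library and 1 or fewer in both NDD libraries, was met by 2 of 12537 genes (0.0160%). By GENCODE position the 4 members lie together on chromosome 1, and of the 8 genes that are not members, 2 lay on the same chromosome, which held 5.62% of the genes present in NDD that could be placed. These were Mptx2, a mucosal pentraxin gene beside the cluster, and Ptpn7, a haematopoietic tyrosine phosphatase gene 38.1 Mb away. Mptx2 had 31 and 73 counts in NDD and 0 in all WT libraries, and Ptpn7 had 69 and 66 in NDD and 0, 1 and 1 in WT. Mptx2 and the 4 members fall within 708 kb.

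The tested genes beside the cluster were then compared. Of the 10 nearest (5 on each side, up to 1849 kb away), none was called by edgeR (2 had an unadjusted p under 0.05), and their median log2 fold change was -0.16. Over all tested genes edgeR called 0.0889%, 11.2% had an unadjusted p under 0.05, and 32.0% had groups that did not overlap. Mptx2, 73.1 kb before Aim2, had a mean of 2.39 ± 1.46 CPM over the NDD libraries (SD, n = 2) and none in WT, with an edgeR adjusted p of 0.178. Mptx1, the related gene 298.7 kb past Ifi205, was read in both groups, at 7.23 ± 2.68 CPM for NDD (SD, n = 2) against 11.0 ± 2.66 CPM for WT (SD, n = 3), which overlapped (log2 fold change -0.60, SE 0.34, edgeR adjusted p 0.484). Tagln2, on the Aim2 side, was the other neighbour whose groups did not overlap, with NDD at 493.5 ± 72.1 CPM (SD, n = 2) and WT at 686 ± 61.3 CPM (SD, n = 3) (log2 fold change -0.48, SE 0.15, edgeR adjusted p 0.414). The other 7, among them Fh1, Exo1 and Igsf9, had overlapping groups. Within 1 Mb of the cluster on either side, 26 of 41 genes with a row were at 0 in every library, and 7 reached 10 counts in any.

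**Figure D2:**
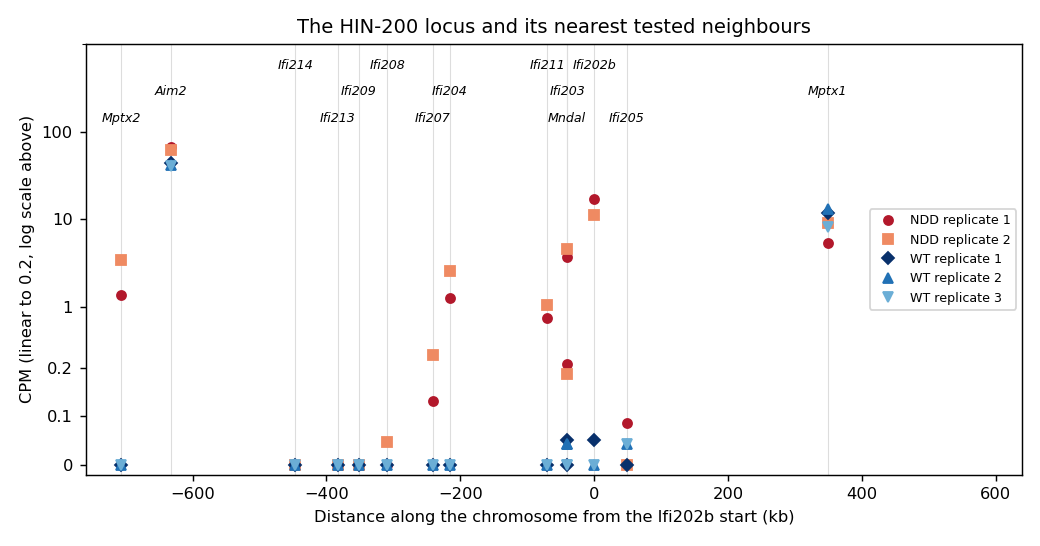
CPM of the cluster's genes that had a row, and of the nearest tested neighbours Mptx2 and Mptx1, against distance from the Ifi202b start in kb (GENCODE starts; middle of the gene for the Mptx pair; Mndal and Ifi203 fall at the same place). The y axis is linear to 0.2 and logarithmic above, and each point is a library. Ifi204, Ifi211, Ifi203, Ifi202b and Mptx2 were read in NDD and not above 1 count in WT, whereas Aim2 and Mptx1 were read in all 5 libraries.

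Paralogous copies can exchange reads, so the private sequence of each gene was measured on the GENCODE transcripts. Of the 31-base sequences of Ifi202b, 98.8% occurred in no other annotated gene and 0% in another gene of the cluster. Aim2 was likewise distinct (95.1% private, 0% shared within the cluster). Ifi203 was 78.4% private and shared mainly with its pseudogene Ifi203-ps, which has no row. Ifi204 was 66.0% private. Ifi211 was only 21.1% private, with 49.5% of its sequences in Ifi205, 38.6% in Ifi204 and 25.2% in Mndal, so its level is uncertain. Of these relatives, Ifi204 had 29 and 54 counts in NDD and 0 in WT, Mndal 5 and 4 against 1, 1 and 0, and Ifi205 at most 2 in any library.

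**Figure D3:**
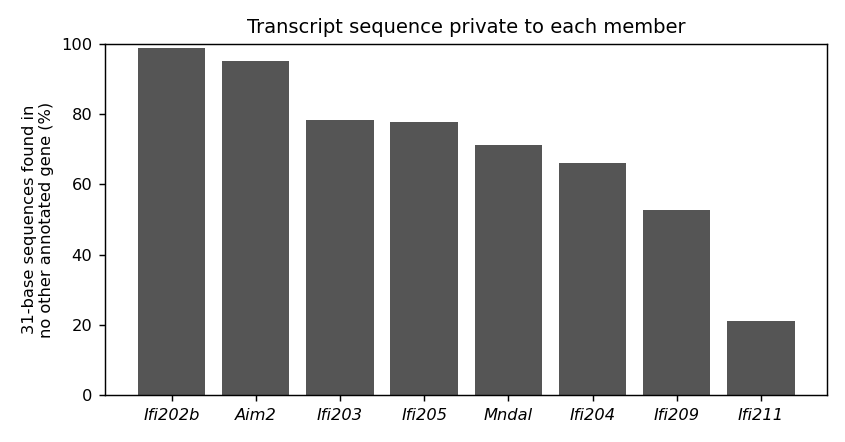
Share of each member's 31-base transcript sequences that occur in no other annotated gene (GENCODE M21), in percent. Ifi202b (98.8%) and Aim2 (95.1%) are almost wholly private, and Ifi211 (21.1%) is not.

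The order of the members by level was read in TPM, which allows genes of different length to be compared. In NDD it ran from Aim2 (48.55 ± 3.33 TPM, SD, n = 2) to Ifi202b (14.47 ± 5.06), Ifi203 (2.00 ± 0.0141), Ifi204 (1.86 ± 0.834), Ifi211 (1.13 ± 0.248), Mndal (0.23 and 0.23 TPM), Ifi205 (0.14 and 0 TPM) and Ifi209 (0). Aim2, Ifi202b and Ifi203 were separated by more than their spread. Ifi203 overlapped Ifi204, and Ifi204 overlapped Ifi211. In WT, Aim2 (29.29 ± 1.04 TPM, SD, n = 3) was followed by values of 0.11 TPM or less. Aim2 therefore made up 68.9% and 73.7% of the summed TPM of the 8 members in NDD and 99.5% to 99.8% in WT, and Ifi202b made up 24.4% and 17.4% in NDD. The 7 members other than Aim2 summed to 22.98 and 16.53 TPM in NDD and to 0.16, 0.12 and 0.05 TPM in WT. Without Ifi202b as well, the remaining 6 summed to 4.93 TPM in NDD replicate 1 and 5.64 TPM in NDD replicate 2.

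The mutant libraries differed from each other in which member was higher. Ifi202b was higher in NDD replicate 1, with CPM intervals for counting error of 15.4 to 18.8 there and 9.69 to 12.6 in NDD replicate 2. Ifi204 was higher in NDD replicate 2, at 1.90 to 3.30 CPM against 0.849 to 1.82 CPM. The intervals of Aim2, Ifi203 and Ifi211 overlapped between the 2 libraries. A gap between single libraries compares those libraries and not the conditions.

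Genes known to act around the family were read from gene lists, of which 112 of 113 entries had a row and 90 were tested. None of the 90 was called by edgeR over all genes. An unadjusted edgeR p under 0.05 was found for 29 of the 90, while 11.2% of all tested genes had one. DESeq2, which called 2.64% of all tested genes, called 8: Gbp2, Ifi27, Ifit1, Irf7, Nlrp1b, Oasl2 and Rtp4 higher and Il1rn lower in NDD. Without NDD replicate 1 edgeR called 14 of the 90, and 8.62% of all genes then tested. These genes and the further ones named for a low p were chosen after their values were seen.

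Interferon ligands were at or near 0, as all 12 genes on the list (among them Ifnb1, Ifng, Ifnl2 and Ifnl3) had at most 2 counts in any library, and 9 had none. The highest in TPM, averaged over the 5 libraries, were Ifne and Ifnz. Of 23 tested interferon receptors and signalling genes, edgeR called none, and the median log2 fold change was 0.16 against 0.00 over all tested genes. In 5 (21.7%) both NDD libraries lay above every WT library, near the 15.8% of all tested genes. The most abundant in TPM were Ifngr2 (log2 fold change 0.20, SE 0.15) and Ifngr1 (0.07, SE 0.13), the chains of the interferon-gamma receptor. Irf9, a subunit of the factor that binds interferon-stimulated response elements, had 294 and 771 counts in NDD and 231, 285 and 227 in WT (log2 fold change 1.10, SE 0.41, edgeR adjusted p 0.437).

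Interferon-stimulated genes had mostly higher values in NDD. Of 24 tested, edgeR called none and gave 13 an unadjusted p under 0.05 in the higher direction and 1 in the lower. Over all 13501 tested genes the same counts were 876 and 632. The median log2 fold change of the list was 1.25. DESeq2 called Gbp2, Ifi27, Ifit1, Oasl2 and Rtp4 of this list, all higher in NDD. In 17 of the 24 (70.8%) both NDD libraries lay above every WT library, against 15.8% of all tested genes. Averaged over the 5 libraries, the highest in TPM were Oas1a, an oligoadenylate synthetase (684 and 775 counts in NDD, 512, 525 and 474 in WT, log2 fold change 0.51, SE 0.17, edgeR adjusted p 0.437), and Bst2, the membrane tether tetherin (log2 fold change 0.09, SE 0.27). Within NDD the highest mean was that of Ifi27 (33.48 TPM, against 13.58 in WT), and within WT that of Ifitm3 (26.04 TPM, against 10.71 in NDD). The antiviral gene Ifit1 had 85 and 205 counts in NDD and 16, 23 and 7 in WT (log2 fold change 3.22, SE 0.62, edgeR adjusted p 0.208). The 4 listed genes below the filter had at most 4 counts in any WT library: Ifit3b had 9 and 15 counts in NDD and 2, 2 and 1 in WT, Ifi44 had 9 and 25 against 4, 4 and 3, Mx2 had 2 and 4 against 1, 1 and 1, and Iigp1 had 0 and 0 against 1, 0 and 1. The list summed to 184.7 and 240.7 TPM in NDD and to 143.3, 163.4 and 168.6 TPM in WT. In 19 of the 24 genes NDD replicate 2 was the higher mutant library, with a median ratio of 1.76 to NDD replicate 1, while 50.0% of all tested genes were higher there. Among the members at or near 0 in WT, the CPM ratio of NDD replicate 2 to NDD replicate 1 was 1.22 for Ifi203, 2.00 for Ifi204, 1.39 for Ifi211 and 0.648 for Ifi202b, and for Ifi211 the order was the opposite in TPM (1.30 and 0.95).

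**Figure D4:**
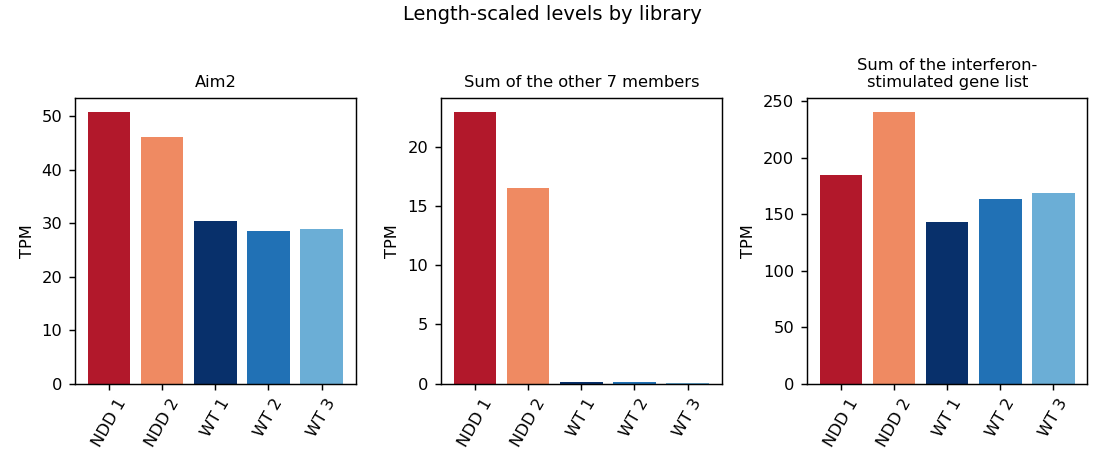
TPM in each library (bars, from 0) of Aim2, of the summed other 7 members, and of the summed interferon-stimulated gene list. Aim2 and the list were read in all libraries, while the other 7 members summed to at most 0.16 TPM in WT, and the list was highest in NDD replicate 2. The lower sum of the other 7 members in NDD replicate 2 comes from Ifi202b, without which they summed to 4.93 and 5.64 TPM.

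Other nucleic acid sensors and adaptors had fold changes in both directions. Of 26 tested, edgeR called none, DESeq2 called Irf7, and the median log2 fold change was -0.06. The fold change was above 0 in 9 of the 26. Of the list, 5 genes (19.2%) had NDD libraries above every WT library and 4 had them below. These directions held 15.8% and 16.2% of all tested genes. The most abundant in TPM, averaged over the 5 libraries, were the helicase gene Dhx9 (log2 fold change -0.42, SE 0.25) and Lrrfip1 (-0.12, SE 0.13). Both had overlapping groups. Polr3c stood above Lrrfip1 within NDD (60.01 against 57.17 TPM) and below it within WT (59.21 against 61.78 TPM). Tmem173, the gene of STING, had 266 and 485 counts in NDD and 504, 669 and 1251 in WT (log2 fold change -1.09, SE 0.42, edgeR adjusted p 0.437), and Irf7, an interferon regulatory factor, had 417 and 682 in NDD and 224, 263 and 156 in WT (log2 fold change 1.34, SE 0.34, edgeR adjusted p 0.323). The DNA sensor gene Mb21d1 (cGAS) had overlapping groups, with 382 and 128 counts in NDD and 299, 232 and 358 in WT.

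The inflammasome list holds the genes of ASC and caspase-1, with which AIM2 acts, among genes of other inflammasomes. It had 17 tested genes, none called by edgeR, with a median log2 fold change of 0.31. Of its genes, 5 had NDD libraries above every WT library (29.4%, against 15.8% of all tested genes) and 3 had NDD libraries below (16.2% of all tested genes). Its most abundant genes in TPM were Txnip, a thioredoxin-binding protein gene (log2 fold change 0.39, SE 0.23), and Il18, a cytokine gene whose product caspase-1 cleaves (3180 and 2075 counts in NDD, 1834, 1731 and 1642 in WT, log2 fold change 0.55, SE 0.21, edgeR adjusted p 0.437). Casp1 had 2087 and 1968 counts in NDD and 1564, 1360 and 1292 in WT (log2 fold change 0.49, SE 0.19, edgeR adjusted p 0.437). Pycard, the gene of ASC, had 1287 and 1566 counts in NDD and 1093, 1163 and 756 in WT (log2 fold change 0.47, SE 0.26, edgeR adjusted p 0.483), and in CPM its groups overlapped. Gsdmd, the gene of the pore-forming protein gasdermin D, also overlapped (log2 fold change -0.04, SE 0.16). Il1rn, the interleukin-1 receptor antagonist, lay lower in both NDD libraries (2730 and 2209 counts) than in WT (5556, 6079 and 5667). Its log2 fold change was -1.26 (SE 0.14), with an edgeR adjusted p of 0.062. DESeq2 called Il1rn lower and Nlrp1b higher in NDD. Among the edgeR fits to all 5 libraries, those with no filter and with the replicate block called Il1rn.

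The genes whose profile over the 5 libraries was most like that of a member were found by the root mean square difference of centred log2 CPM among 12267 genes. For Ifi202b these were Retnlb, a goblet cell secreted product (0.152), Gm12191 (0.582) and the enolase gene Eno1b (0.611). Retnlb had 333 and 216 counts in NDD and 1, 2 and 0 in WT, high in NDD replicate 1 like Ifi202b. Ifi203 was the fifth in that order, and Aim2 the 629th. For Aim2 the nearest were Caprin2 (0.0572), Vsig10 (0.061) and Ppm1h (0.0663), all read in every library.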

How the data were processed

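Per the labels' protocols, RNA came from a column kit (Purelink) and was sequenced as Illumina stranded mRNA libraries. The submitters' processing notes name Bowtie2, RSEM and the build mm10, without versions; the annotation is not given in the sources used here. The deposited tables hold estimated counts (not normalized by the authors, deposited as whole numbers) and TPM (by the authors, relative to transcript length and library size). A listed 0 or 1 can be a rounded fraction, since 214 entries listed at 0 counts have a nonzero TPM. How reads matching several genes were shared is not given in the sources used here.

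Members and lists were chosen with earlier results of these data known. Counts were fitted with edgeR 4.0.16 in R 4.3.3 (quasi-likelihood, robust, TMM factors, filterByExpr, no covariate, prior count 0.125) over 13501 genes, with Benjamini-Hochberg adjustment and a threshold of 0.05. The standard error is the log2 fold change over the square root of F. CPM use TMM-scaled sizes, except marker sums and the stated range of the zero limit, which use totals; lower bounds of folds use the limit on TMM-scaled sizes. Count intervals are exact Poisson, and ratios use exact binomial limits. The code was tested on simulated data. Named were all members, the called genes and the 2 with the highest mean TPM of each pathway list, 5 tested neighbours per side, and the 3 nearest profiles; Mb21d1, Irf9, Tmem173, Casp1, Ifit3b, Pycard, Gsdmd, Krt20, Slc26a3, Ifi27, Ifitm3 and others outside this rule were named after their values were seen (pseudocount for profiles 0.5 CPM, mean of at least 1 CPM). Alternatives included DESeq2 1.42.0, limma 3.58.1 on log2(TPM + 1) or log2(TPM + 0.1) with at least 1 TPM in 2 libraries, other filters and factors, a replicate block and left-out libraries.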

Additional observations from a re-analysis of the deposited data

How the results depend on the processing

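Over the alternatives the fitted log2 fold change of Aim2 ranged from 0.55 to 0.73, that of Ifi202b from 3.89 to 11.3, Ifi203 from 1.58 to 9.49, Ifi204 from 1.48 to 8.77 and Ifi211 from 1.08 to 7.48; the choice of members fixes their sign. Calls moved too. With 10 counts required in every library, 4 genes and 0 members were called (1 member was testable, with an unadjusted p under 0.05), a rule that removes genes absent from WT by its construction. With no filter 58 genes, 3 members (Ifi202b, Ifi203 and Ifi204) and 1 gene of the pathway lists were called, and DESeq2 called 357 genes, 5 members and 8 list genes. The fits of limma on log2(TPM + 1), on log2(TPM + 0.1) and on log2(TPM + 1) with no filter called 16, 16 and 9 genes and each 1 member, Ifi202b. Across the fits without 1 library, called genes ranged from 0 to 1207, members from 0 to 3 and list genes from 0 to 14; the cause was not tested. The summed members had a log2 fold change of 1.03 on CPM, 1.22 on summed TPM and 0.947 to 1.11 without 1 library. Both groups use replicate numbers 1 and 2 without a stated meaning, and deviations of same-numbered libraries correlated at -0.0212 and 0.378, so they were not treated as pairs. With the replicate block 33 genes (11 of them among the 12), the same 2 members and 1 list gene (Il1rn) were called. Unscaled totals, an alternative chosen after seeing the data, gave lower bounds of 12.0 for Ifi204 and 5.61 for Ifi211. Depth limits Ifi205, Ifi209 and Mndal, which had at most 5 counts.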

Other observations

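The other 6 genes present in both NDD libraries and absent from WT each lay on a different chromosome. Rpl34-ps1 (chromosome 6), a ribosomal protein pseudogene, had 1327 and 1422 counts in NDD and 0 in all 3 WT libraries, the highest of the 12. Gm1943 (chromosome 8) had 53 and 67 counts in NDD with a single count in WT replicate 1. Ttc34 (chromosome 4) had 32 and 39 counts and Npcd (chromosome 15) had 21 and 34, both with none in WT. Gm5801 (chromosome 14) and Gm5512 (chromosome 19) had 19 to 88 counts in the NDD libraries and a single WT count each. These genes were listed after their values were seen, and reads of the pseudogene may belong to related copies.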
